A study of Mus musculus with 44 samples.

Results

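The peaks described here were the accessible sites around Nodal, Lefty1, Lefty2, Tdgf1 and Bmp4 in the ATAC-seq table of mouse morulae and inner cell masses (ICMs). A peak was taken when any base of its 200 bp window lay in chr10:61397000-61446000 (Nodal), chr1:180870000-180960000 (Lefty1 and Lefty2), chr9:110919000-110967000 (Tdgf1) or chr14:46363000-46411000 (Bmp4). These are mm10 spans that hold the genes and 20 kb on either side. This gave 52 of the 152393 peaks, of which 25 lay at Lefty1-Lefty2, 11 at Tdgf1, 9 at Bmp4 and 7 at Nodal.

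The study asked what the loss of Oct4 (the protein of Pou5f1) or of Sox2 does to chromatin in preimplantation embryos labelled B6C3F1. Each of the 44 libraries was made from 20 to 40 pooled morulae or ICMs. In the Pou5f1 line (Oct4 in the labels), males carrying Pou5f1 +/mKO2 were crossed to Pou5f1 flox/flox females with Zp3-Cre, which deletes in the growing oocyte. In the Sox2 line, Sox2 +/EGFP males were crossed to Sox2 flox/flox; Zp3-Cre females. Embryos that inherited the reporter allele lacked maternal and zygotic copies (Pou5f1-KO or Sox2-KO). Their reporter-negative littermates (Ctrl) lacked the maternal copy and kept an intact paternal copy, so that every group carried the maternal deletion of its own line and none is a wild type. The reporter was driven by a PGK promoter and was used to sort the embryos. The Pou5f1 line had 3 Ctrl and 3 KO libraries of morulae (E2.75) and of late morulae (E3.25). Each line had 4 Ctrl and 4 KO libraries of early ICMs (E3.75) and of late ICMs (E4.5). ICM embryos were cultured from E2.5 with 1 μM PD0325901, a MEK inhibitor used to turn the ICM towards epiblast, and the ICM was freed of trophectoderm by immunosurgery. Morulae had neither treatment, so any comparison of morula with ICM crosses both. Superovulated females were used. The study's methods call the replicates of a group biological, but the sources used here do not say that they came from separate matings. The p-values thus measure the spread between these libraries, part or all of which may be technical.

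Nodal is a TGF-β family ligand that signals through activin receptors, Smad2/3 and the co-receptor Cripto, which Tdgf1 encodes. Lefty1 and Lefty2 are secreted inhibitors of Nodal that are themselves Nodal targets, so the ligand and its inhibitors form a feedback loop. Bmp4 is a ligand of the BMP branch, which signals through Smad1/5/9. Nodal and Cripto are expressed in the pluripotent epiblast, and Bmp4 in the ICM and later in the extraembryonic ectoderm, and Nodal and Bmp4 signalling pattern the embryo after implantation.

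Accessibility is given as rlog, the authors' regularised log2 of Tn5 insertion counts in each window. Because all windows are of equal length, levels can be set beside each other per length. The transform pulls weak peaks towards their mean and the counts behind it are not used here, so that the depth is unknown. Differences are KO minus Ctrl on this log2 scale, and a peak was called decreased or increased when limma gave an adjusted p below 0.05 over all 152393 peaks. In pooled embryos, fewer cells with an open site and a less open site in every cell cannot be told apart. Library medians of rlog ran from 2.35 to 2.63.

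Below are the windows of each locus's lead peak, chosen for the smallest adjusted p of any KO comparison, and 2 more that hold an OCT-SOX match or a pair of OCT words. The letters are the plus strand of RefSeq GRCm38.p6, 200 bases each, with matches to the motif named before each window in capitals (a window may hold other motifs). The word OCT is ATGCAAAT, SOX is ACAATGG or ACAAAGG, KLF is GGGNGTGG and TEAD is GGAATG, each read on both strands without a mismatch. The OCT-SOX composite is a motif of 15 letters read on both strands with up to 3 mismatches, and it can overlap the OCT and SOX words.

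The lead Lefty peak, chr1:180888700-180888899, was intergenic, 4309 bp upstream of the Lefty2 start, and its OCT-SOX match on the minus strand (chr1:180888826-180888840) had 3 mismatches.
Lefty2 upstream: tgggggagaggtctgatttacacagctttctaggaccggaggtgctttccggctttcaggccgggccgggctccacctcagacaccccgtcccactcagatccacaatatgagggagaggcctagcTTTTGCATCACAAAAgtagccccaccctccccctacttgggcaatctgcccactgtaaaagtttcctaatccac
The peak chr1:180958753-180958952 lay in an intron of Tmem63a, 23830 bp downstream of the Lefty1 start, and held 2 OCT words on the minus strand.
Tmem63a intron: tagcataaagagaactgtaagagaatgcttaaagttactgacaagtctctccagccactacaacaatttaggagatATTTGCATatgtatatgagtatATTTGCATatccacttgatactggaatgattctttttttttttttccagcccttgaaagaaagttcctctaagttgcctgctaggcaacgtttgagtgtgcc
The lead Bmp4 peak, chr14:46391805-46392004, lay 1235 bp upstream of the start and held 2 SOX words, 1 on each strand.
Bmp4 upstream: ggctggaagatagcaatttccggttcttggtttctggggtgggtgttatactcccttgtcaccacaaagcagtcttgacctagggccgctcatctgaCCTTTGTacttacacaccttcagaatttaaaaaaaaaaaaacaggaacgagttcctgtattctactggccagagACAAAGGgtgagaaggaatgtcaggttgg
The lead Tdgf1 peak, chr9:110946508-110946707, lay 449 bp upstream of the start and held 1 KLF word.
Tdgf1 upstream: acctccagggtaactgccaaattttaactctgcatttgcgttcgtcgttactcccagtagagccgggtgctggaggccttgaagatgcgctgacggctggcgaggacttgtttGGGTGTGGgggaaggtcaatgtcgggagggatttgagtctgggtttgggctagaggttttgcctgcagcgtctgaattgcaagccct
A second Tdgf1-locus peak, chr9:110965117-110965316, in an intron of Lrrc2 and 19058 bp upstream of Tdgf1, held the only other OCT-SOX match among the 52, with 3 mismatches, overlapped by a SOX word.
Lrrc2 intron: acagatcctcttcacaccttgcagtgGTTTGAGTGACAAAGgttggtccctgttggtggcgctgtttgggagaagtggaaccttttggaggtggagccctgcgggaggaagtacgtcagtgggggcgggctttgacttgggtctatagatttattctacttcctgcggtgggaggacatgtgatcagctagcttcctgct
The lead Nodal-locus peak, chr10:61440345-61440544, lay in an intron of Eif4ebp2, 22472 bp downstream of the Nodal start, and held 1 TEAD word beside 1 KLF word.
Eif4ebp2 intron: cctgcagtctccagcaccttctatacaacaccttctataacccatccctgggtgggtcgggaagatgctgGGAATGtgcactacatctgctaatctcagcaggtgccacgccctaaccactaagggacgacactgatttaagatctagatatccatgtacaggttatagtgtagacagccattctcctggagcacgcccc

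In Pou5f1-KO ICMs, more peaks at these loci lost accessibility than gained it. In late ICM, 17 of the 52 peaks (32.7%) were decreased and 2 increased (3.85%), where 10.1% of all peaks were decreased and 8.19% increased. In early ICM 11 were called, 9 of them decreased (17.3%) and 2 increased (3.85%), where 8.18% of all peaks were called and 5.43% decreased. The median difference over the 52 was -0.50 in late ICM (-0.04 over all peaks). In early ICM this median was -0.35 (-0.02 over all peaks). Accessibility was lower on average in the KO at 39 of the 52 in late ICM and at 40 in early ICM. All 4 KO libraries lay below all 4 Ctrl libraries at 20 of the 52 in late ICM (38.5%, beside 10.8% of all peaks) and at 11 in early ICM (21.2%, beside 6.87%). In late ICM, peaks near the genes' own starts were part of this. There 7 of the 13 peaks within 2 kb of a member gene's start were decreased, none of them at Lefty1 or Lefty2, and 10 of the 39 farther away. In early ICM 2 of the 13 and 7 of the 39 were decreased. The share decreased near starts over all peaks was not counted.

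In Sox2-KO the count was smaller. In late ICM, 5 peaks (9.62%) were decreased and 0 increased, where 4.88% and 2.71% of all peaks were, and the median difference was -0.25 (0.01 over all peaks). In early ICM only the peak 1235 bp upstream of Bmp4 was decreased (1.92%, beside 1.91% of all peaks; 0 were increased, beside 0.238%), and the median difference was 0.04 (0.05 over all peaks). All 4 KO libraries lay below all 4 Ctrl libraries at 4 of the 52 in late ICM (7.69%), close to the 6.88% of all peaks. The 5 peaks decreased in Sox2-KO late ICM were among the 17 decreased in Pou5f1-KO late ICM, which is 100% of the shorter list and 29.4% of the longer. They lay upstream of Lefty2, Nodal and Bmp4 and at Lrrc2, next to Tdgf1, where there were 2. The Sox2-KO late ICM count fell to 2 without Sox2 Ctrl late ICM replicate 1 or 2, and to 3 without Ctrl replicate 4 or KO replicate 2, 3 or 4. In early ICM it was 0 without Sox2-KO replicate 3, and 2 without Ctrl replicate 1, 3 or 4 or KO replicate 4.

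In Pou5f1-KO morulae limma called 0 of the 52 peaks, with 1 at an unadjusted p below 0.05, where 0.185% of all peaks were decreased and 0.0518% increased. In late morulae it again called 0, with 1 at an unadjusted p below 0.05 (0.539% and 0.108% of all peaks). The largest late-morula difference among the peaks described was at the Tmem63a intron. There Ctrl late morulae were at 2.02, 1.83 and 2.19 and KO late morulae at 0.64, 0.95 and 0.56, so that the groups did not overlap, and the difference of -1.30 was not called (limma adjusted p = 0.371). With 3 libraries a group the morula comparisons are less precise than those of ICMs.

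**Figure D1:**
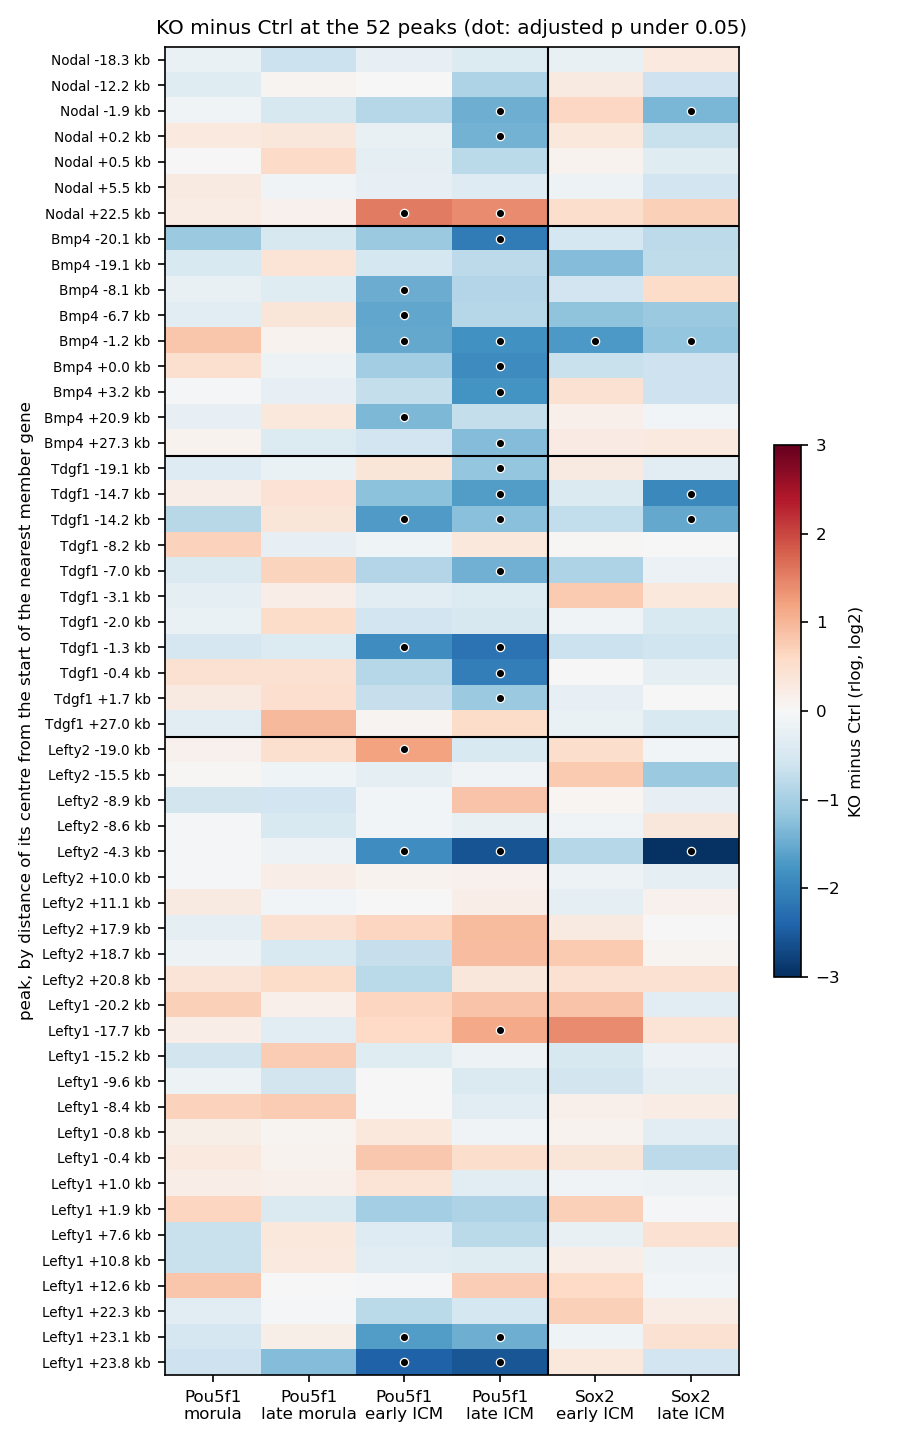
Differences (KO minus Ctrl, log2) of the 52 peaks in the 6 KO comparisons, with peaks in rows ordered by locus and position and comparisons in columns, and a dot where limma gave an adjusted p below 0.05. Dots gather in the Pou5f1-KO ICM columns (11 at the early and 19 at the late stage), with 1 and 5 in the Sox2-KO ICM columns and 0 in the morula columns.

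At Bmp4, Pou5f1-KO decreased 4 of the 9 peaks at the early and 5 at the late ICM stage. All 9 had a lower mean in KO early ICM (median difference -1.11; in late ICM -1.30). The peak 1235 bp upstream of the start was decreased in all 4 ICM comparisons. In early ICM it was at 5.22, 5.05, 4.83 and 5.15 in Ctrl and at 3.69, 2.39, 4.11 and 3.88 in Pou5f1-KO. In late ICM it was at 5.68, 5.16, 5.27 and 5.45 in Ctrl and at 3.44, 3.38, 3.01 and 4.45 in Pou5f1-KO. Every KO library lay below every Ctrl library at both stages, and limma gave differences of -1.54 (SE 0.37, adjusted p = 0.00227) and -1.82 (adjusted p = 9.94e-05).

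The same Bmp4 upstream peak fell in Sox2-KO. In early ICM it was at 4.61, 4.98, 4.76 and 5.74 in Ctrl and at 3.13, 4.03, 1.88 and 4.19 in Sox2-KO (difference -1.72, limma adjusted p = 0.00143). In late ICM it was at 5.49, 4.96, 5.15 and 4.98 in Ctrl and at 3.996, 3.83, 4.21 and 3.93 in Sox2-KO (-1.15, limma adjusted p = 0.0363). The groups were apart at both stages. The early ICM call was lost without Sox2-KO replicate 3 (-1.24, limma adjusted p = 0.0802), and the late ICM call was lost whichever of its 8 libraries was left out (limma adjusted p from 0.0503 to 0.123). The Pou5f1-KO difference minus the Sox2-KO difference was 0.17 in early ICM (95% interval -0.87 to 1.21) and -0.67 in late ICM (-1.71 to 0.37), which does not separate the lines and leaves room for a difference of about the size of the effect. In morulae this peak was lower, at 1.88, 3.21 and 2.62 in Ctrl and 2.58, 3.81 and 3.82 in Pou5f1-KO at E2.75 (difference 0.83, limma adjusted p = 0.62).

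At the Bmp4 start itself, chr14:46390552-46390751 in the 5′ UTR, Ctrl late ICMs were at 3.48, 4.15, 4.05 and 3.86 and Pou5f1-KO late ICMs at 1.30, 1.70, 1.70 and 3.27. All KO libraries lay lower, with replicate 4 closest to the Ctrl (difference -1.89, limma adjusted p = 0.000982). In early ICM the difference was -1.05 (adjusted p = 0.147), and in Sox2-KO it was -0.66 and -0.62 (adjusted p = 0.619 and 0.505, limma). A peak 20112 bp upstream was at 4.08, 3.51, 3.68 and 2.98 in Ctrl late ICMs and at 1.00, 2.05, 1.24 and 1.58 in Pou5f1-KO (-2.09, limma adjusted p = 0.000126). This was the largest of the late ICM decreases at Bmp4. A peak 3205 bp downstream of the start, in an exon of a non-coding Bmp4 transcript, was at 4.07, 3.69, 4.32 and 3.95 in Ctrl and at 2.32, 2.87, 0.81 and 2.81 in Pou5f1-KO (-1.80, limma adjusted p = 0.000312). The other Bmp4-locus calls were decreases of single stages. In early ICM they lay 6687 bp and 8068 bp upstream and 20926 bp downstream (-1.55, -1.48 and -1.35, with limma adjusted p = 0.0084, 0.00389 and 0.0286). In late ICM the call lay 27284 bp downstream (-1.30, limma adjusted p = 0.0313). The 2 peaks more than 20 kb downstream have Gm15217, not Bmp4, as their nearest coding gene.

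**Figure D2:**
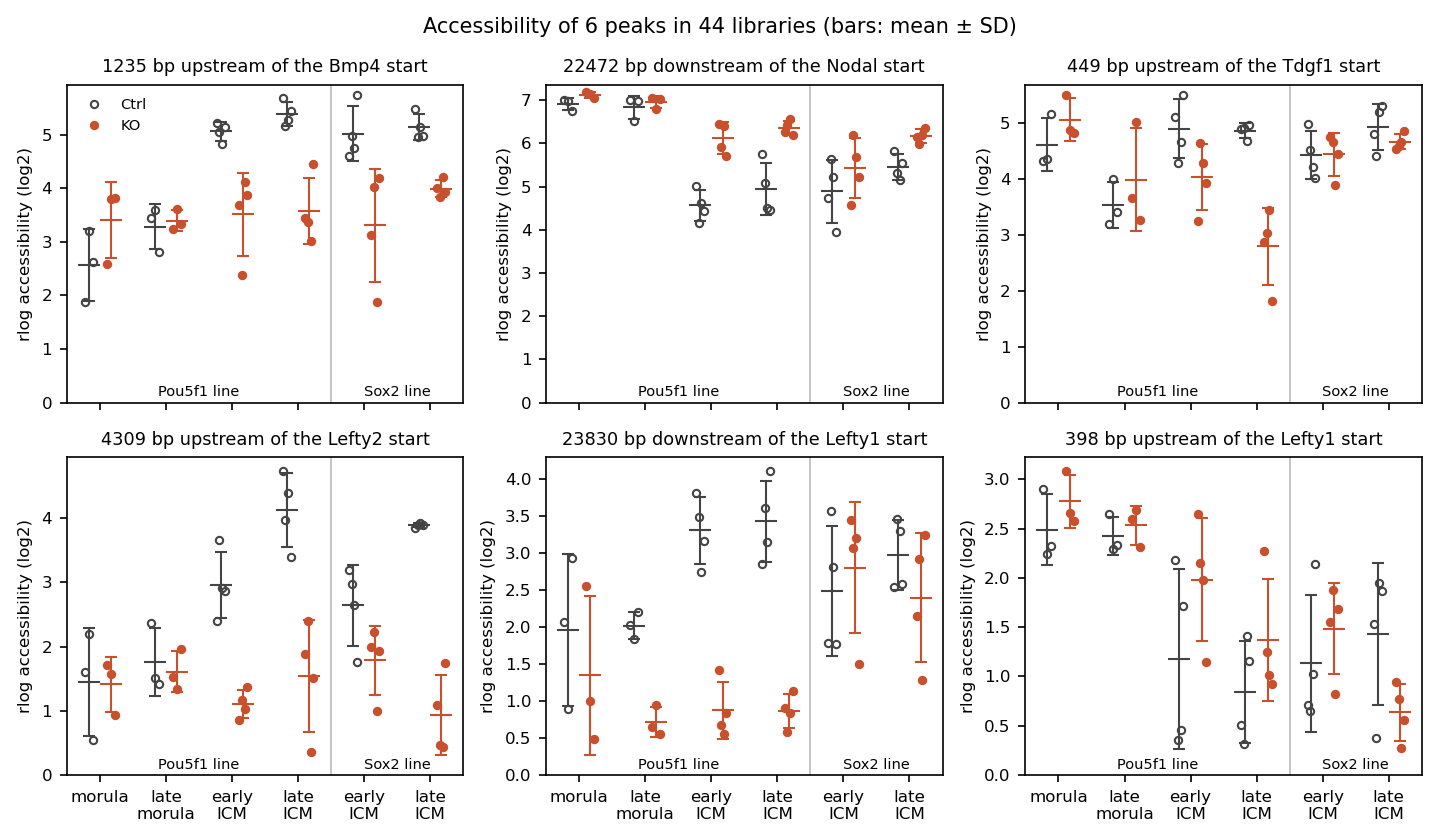
Accessibility (rlog, log2 units) of 6 peaks in each of the 12 groups, with a point per library and the mean ± SD of the 3 or 4 libraries of a group. In late ICM the Lefty2 upstream peak stood at 3.39 to 4.73 in Pou5f1 Ctrl and 0.36 to 2.40 in Pou5f1-KO, while the Eif4ebp2 intron peak ran the other way, at 4.45 to 5.75 in Ctrl and 6.20 to 6.55 in KO.

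At Nodal, 2 of the 7 peaks fell in Pou5f1-KO late ICM, in the 5′ UTR and upstream of the gene, and a strong peak in the neighbouring gene Eif4ebp2 rose. The 2 other peaks inside Nodal had differences of -0.81 and -0.38 and were not called (limma adjusted p = 0.219 and 0.603). The peak in the Nodal 5′ UTR, chr10:61418092-61418291, was at 2.70, 3.33, 2.87 and 3.05 in Pou5f1 Ctrl late ICMs and at 0.99, 1.14, 2.28 and 1.87 in the KO. The groups were apart, and the difference was -1.42 (limma adjusted p = 0.0174), a call lost without KO replicate 1 or 2 or Ctrl replicate 2 (adjusted p = 0.071, 0.0601 and 0.057, limma). In early ICM the difference was -0.23 (limma adjusted p = 0.847) and in Sox2-KO late ICM -0.66 (limma adjusted p = 0.475). Over the 12 groups this peak was highest in Sox2 Ctrl late ICM (mean 2.99), Pou5f1 Ctrl late ICM (2.99) and Pou5f1 Ctrl early ICM (2.90), and lowest in Ctrl late morula (1.66), Ctrl morula (1.60) and Pou5f1-KO late ICM (1.57), and the steps between neighbours in this order were smaller than the spread of their libraries.

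The peak 1864 bp upstream of Nodal, chr10:61416009-61416208, fell in late ICM in both lines. Pou5f1 Ctrl late ICMs were at 2.18, 3.749, 2.58 and 2.74 and KO late ICMs at 0.52, 1.72, 1.66 and 1.54 (difference -1.45, limma adjusted p = 0.0158). The groups did not overlap. Sox2 Ctrl late ICMs were at 2.753, 2.89, 1.87 and 2.93 and Sox2-KO at 2.03, 1.80, 0.65 and 0.44 (-1.38, limma adjusted p = 0.0442), where KO replicate 1 lay above Ctrl replicate 3. The Pou5f1-KO call was lost without KO replicate 1 or Ctrl replicate 2 (limma adjusted p = 0.0902 and 0.104), and the Sox2-KO call without Ctrl replicate 1, 2 or 4 or KO replicate 3 or 4 (limma adjusted p from 0.1 to 0.19) and under quantile normalisation (0.066). In early ICM the differences were -0.85 in Pou5f1-KO and 0.62 in Sox2-KO (limma adjusted p = 0.288 and 0.665).

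The Eif4ebp2 intron peak was the highest of the 52 (mean rlog 5.89 over all libraries) and the only one called increased at both ICM stages in Pou5f1-KO. Eif4ebp2 encodes a translational repressor that binds eIF4E. Ctrl morulae were at 6.99, 6.98 and 6.74 and Ctrl late morulae at 6.99, 6.53 and 6.99. Ctrl early ICMs were lower, at 5.02, 4.16, 4.62 and 4.44, and the KO early ICMs stood between, at 6.46, 5.93, 6.40 and 5.71. The KO excess over Ctrl was 1.56 in early ICM (SE 0.26, limma adjusted p = 3.21e-06). In late ICM it was 1.41 (limma adjusted p = 1.27e-05), with Ctrl at 5.75, 5.07, 4.51 and 4.45 and KO at 6.26, 6.43, 6.55 and 6.20. In Sox2-KO late ICM the libraries were also apart, at 5.83, 5.31, 5.15 and 5.54 in Ctrl and 6.14, 5.99, 6.20 and 6.35 in KO, but the difference of 0.72 was not called (limma adjusted p = 0.0714). It was called when only the compared groups were fitted (limma adjusted p = 0.0143).

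At the Tdgf1 locus, 7 of the 11 peaks were decreased in Pou5f1-KO late ICM and 2 in early ICM, and none increased, with median differences of -1.17 and -0.68. Of these 7, 4 have Lrrc2 as their nearest coding gene and 3 have Tdgf1. The peak nearest the Tdgf1 start, 449 bp upstream, was at 4.89, 4.91, 4.66 and 4.96 in Ctrl late ICMs and at 2.87, 3.04, 3.44 and 1.81 in Pou5f1-KO. Every KO library lay more than 1 log2 unit below every Ctrl library (difference -2.07, 95% interval -2.75 to -1.39, limma adjusted p = 1.67e-06). In Sox2 late ICMs the Ctrl libraries were at 4.79, 4.40, 5.18 and 5.30 and the KO libraries at 4.53, 4.58, 4.66 and 4.84. The Sox2 groups overlapped, and the difference was -0.26 (95% interval -0.94 to 0.42, limma adjusted p = 0.771). The Pou5f1-KO difference minus the Sox2-KO difference was -1.80 (95% interval -2.77 to -0.84, limma adjusted p = 0.0411). It was the only one of the 52 called in that late ICM comparison (1.92%, beside 0.554% of all peaks in this direction and 0.351% in the other). This call rested on single libraries, since it was lost without any of Pou5f1 Ctrl replicates 1 to 4, Pou5f1-KO replicates 1 and 4, Sox2 Ctrl replicates 1 and 2 and Sox2-KO replicates 1 to 4. It was also lost with quantile normalisation.

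In early ICM the same Tdgf1 peak was at 5.10, 4.28, 4.66 and 5.50 in Pou5f1 Ctrl and at 3.248, 4.63, 4.28 and 3.93 in KO. The groups overlapped at replicate 2 of the KO, and the difference of -0.86 was not called (limma adjusted p = 0.11). In morulae Ctrl was at 4.32, 4.34 and 5.15 and KO at 5.49, 4.86 and 4.81, so this site was already accessible before the ICM formed. Its order over the groups ran from Pou5f1-KO morula (mean 5.05) to Pou5f1-KO late ICM (2.79), and the step from Ctrl late morula (3.52) down to Pou5f1-KO late ICM was the largest between neighbours.

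A peak 1301 bp upstream of Tdgf1 was decreased in Pou5f1-KO at both ICM stages. In late ICM Ctrl was at 3.69, 3.06, 3.32 and 3.48 and KO at 1.08, 1.56, 1.28 and 0.78 (difference -2.21, limma adjusted p = 1.76e-05). In early ICM Ctrl was at 2.29, 4.29, 2.69 and 3.73 and KO at 1.97, 1.31, 0.70 and 1.52 (-1.87, limma adjusted p = 0.00065). The groups were apart at both stages. In Sox2-KO late ICM the difference was -0.61 (limma adjusted p = 0.46), and the difference between the lines, -1.60, was not called (limma adjusted p = 0.18). A further decrease in Pou5f1-KO late ICM lay in the Tdgf1 5′ UTR 1651 bp downstream of the start (-1.10, limma adjusted p = 0.0217). Others lay in introns of Lrrc2, 6957 bp upstream of Tdgf1 (-1.45, 0.0151) and 19058 bp upstream (-1.17, 0.0382), the last at the window with an OCT-SOX match.

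A pair of peaks inside Lrrc2, a leucine-rich repeat gene beside Tdgf1, fell in late ICM in both lines. At chr9:110960750-110960949, a coding exon 14691 bp upstream of Tdgf1, Sox2 Ctrl late ICMs were at 3.16, 4.14, 2.80 and 3.38 and Sox2-KO at 1.85, 2.09, 0.97 and 0.86 (-1.93, limma adjusted p = 0.00164). Pou5f1 Ctrl late ICMs were at 2.50, 3.48, 3.64 and 3.14 and KO at 1.51, 2.58, 0.44 and 1.55 (-1.67, limma adjusted p = 0.00419; without KO replicate 3, -1.31 and 0.051). Only KO replicate 2 of the Pou5f1 line, at 2.58, reached the range of its Ctrl. In Pou5f1-KO early ICM the difference of -1.24 was not called (limma adjusted p = 0.0743) but was with the replicate block, in the stage at which equal replicate numbers did pair the libraries (0.0417), and without Ctrl replicate 3 (0.0434). At chr9:110960302-110960501, in the adjacent intron, Sox2 Ctrl late ICMs were at 4.08, 3.92, 2.73 and 3.30 and Sox2-KO at 1.88, 1.68, 1.89 and 2.42 (-1.54, limma adjusted p = 0.0145), a call lost without Sox2 Ctrl replicate 1 or 2 or KO replicate 2 (limma adjusted p from 0.0525 to 0.0769). In Pou5f1-KO it fell by 1.70 in early ICM (limma adjusted p = 0.00531), with Ctrl at 2.97, 3.81, 2.95 and 3.73 and KO at 0.99, 1.96, 1.49 and 2.20, and by 1.26 in late ICM (0.0323). The late ICM call was lost without Pou5f1 Ctrl replicate 2 or 3 or KO replicate 2, 3 or 4 (limma adjusted p from 0.0535 to 0.13) and under quantile normalisation (0.0537).

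At Lefty1-Lefty2, 3 of the 25 peaks were decreased and 1 increased in Pou5f1-KO at each ICM stage, with a median difference of -0.16 in late ICM, so that most of the window did not pass the test. The intergenic peak upstream of Lefty2 fell in late ICM in both lines. It was at 4.73, 3.96, 4.40 and 3.39 in Pou5f1 Ctrl and at 1.89, 2.40, 0.36 and 1.51 in KO (difference -2.58, 95% interval -3.44 to -1.72, limma adjusted p = 2.24e-06). In Sox2 late ICMs it was at 3.85, 3.90, 3.92 and 3.89 in Ctrl and at 1.09, 0.46, 0.44 and 1.75 in KO (-2.96, 95% interval -3.82 to -2.10, limma adjusted p = 1.26e-07). All KO libraries lay below all Ctrl libraries in both lines, and the Sox2 Ctrl libraries differed by less than 0.1 from each other. The Pou5f1-KO difference minus the Sox2-KO difference was 0.37, with a 95% interval from -0.84 to 1.59.

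In early ICM the Lefty2 upstream peak fell in Pou5f1-KO, from 2.40, 3.65, 2.91 and 2.87 in Ctrl to 0.86, 1.17, 1.02 and 1.37 in KO (-1.85, limma adjusted p = 0.00169). In Sox2-KO early ICM it was at 2.00, 2.22, 1.00 and 1.92 against 3.20, 2.98, 2.65 and 1.76 in Ctrl, with groups that overlapped (-0.86, limma adjusted p = 0.423). The change of the Sox2-KO effect from early to late ICM, -2.10, was not called (limma adjusted p = 0.227). Levels were low in morulae, at 1.61, 2.20 and 0.54 in Ctrl morulae and 2.37, 1.50 and 1.42 in Ctrl late morulae. The order of the groups was Pou5f1 Ctrl late ICM (4.12), Sox2 Ctrl late ICM (3.89), Pou5f1 Ctrl early ICM (2.96) and Sox2 Ctrl early ICM (2.65), with the 8 other groups between 1.78 and 0.93. The step from Sox2 Ctrl late ICM to Pou5f1 Ctrl early ICM was the widest in that order.

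The Tmem63a intron peak with 2 OCT words fell in Pou5f1-KO at both ICM stages. Tmem63a, the gene it lies in, encodes an ion channel of the plasma membrane and lysosome. Pou5f1 Ctrl early ICMs were at 3.81, 3.49, 2.746 and 3.16 and KO at 1.42, 0.68, 0.56 and 0.84 (-2.43, limma adjusted p = 4.98e-05). In late ICM Ctrl was at 2.85, 3.60, 3.15 and 4.10 and KO at 0.91, 0.58, 0.83 and 1.13 (-2.56, limma adjusted p = 7.59e-06). The groups were apart by more than 1 log2 unit at each stage. Sox2 Ctrl early ICMs were at 1.78, 3.57, 2.82 and 1.77 and Sox2-KO at 3.44, 3.07, 3.19 and 1.50 (0.32, 95% interval -0.59 to 1.22, limma adjusted p = 0.866), and in late ICM the difference was -0.57 (-1.48 to 0.33, adjusted p = 0.559). The Pou5f1-KO difference minus the Sox2-KO difference in early ICM was -2.745 (95% interval -4.02 to -1.47, limma adjusted p = 0.0162), the only call of the 52 in that comparison (0.372% of all peaks in this direction and 0.308% in the other). With the replicate block 2 more were called, in a Tmem63a intron 22285 bp downstream of the Lefty1 start (-1.53, limma adjusted p = 0.0417) and at the Eif4ebp2 intron (1.03, 0.0385). Same-numbered Ctrl and KO early ICM libraries deviated together in all 4 pairs of the Pou5f1 line (correlation above 0.1) and in 3 of 4 of the Sox2 line, where the other pair was at 0.0859. The count of that comparison was 0 without Sox2-KO replicate 1 and 2 without Sox2 Ctrl replicate 4. In late ICM the difference between the lines was -1.99 (limma adjusted p = 0.116). The next peak, in a Tmem63a coding exon 23117 bp downstream of the Lefty1 start, fell by 1.67 and 1.46 in Pou5f1-KO early and late ICM (limma adjusted p = 0.0101 and 0.0167). Those calls were lost without KO replicate 3 or 4 in early ICM (0.0743 and 0.0544) and without KO replicate 1 or 2 or Ctrl replicate 1 or 4 in late ICM (0.0541 to 0.0768).

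**Figure D3:**
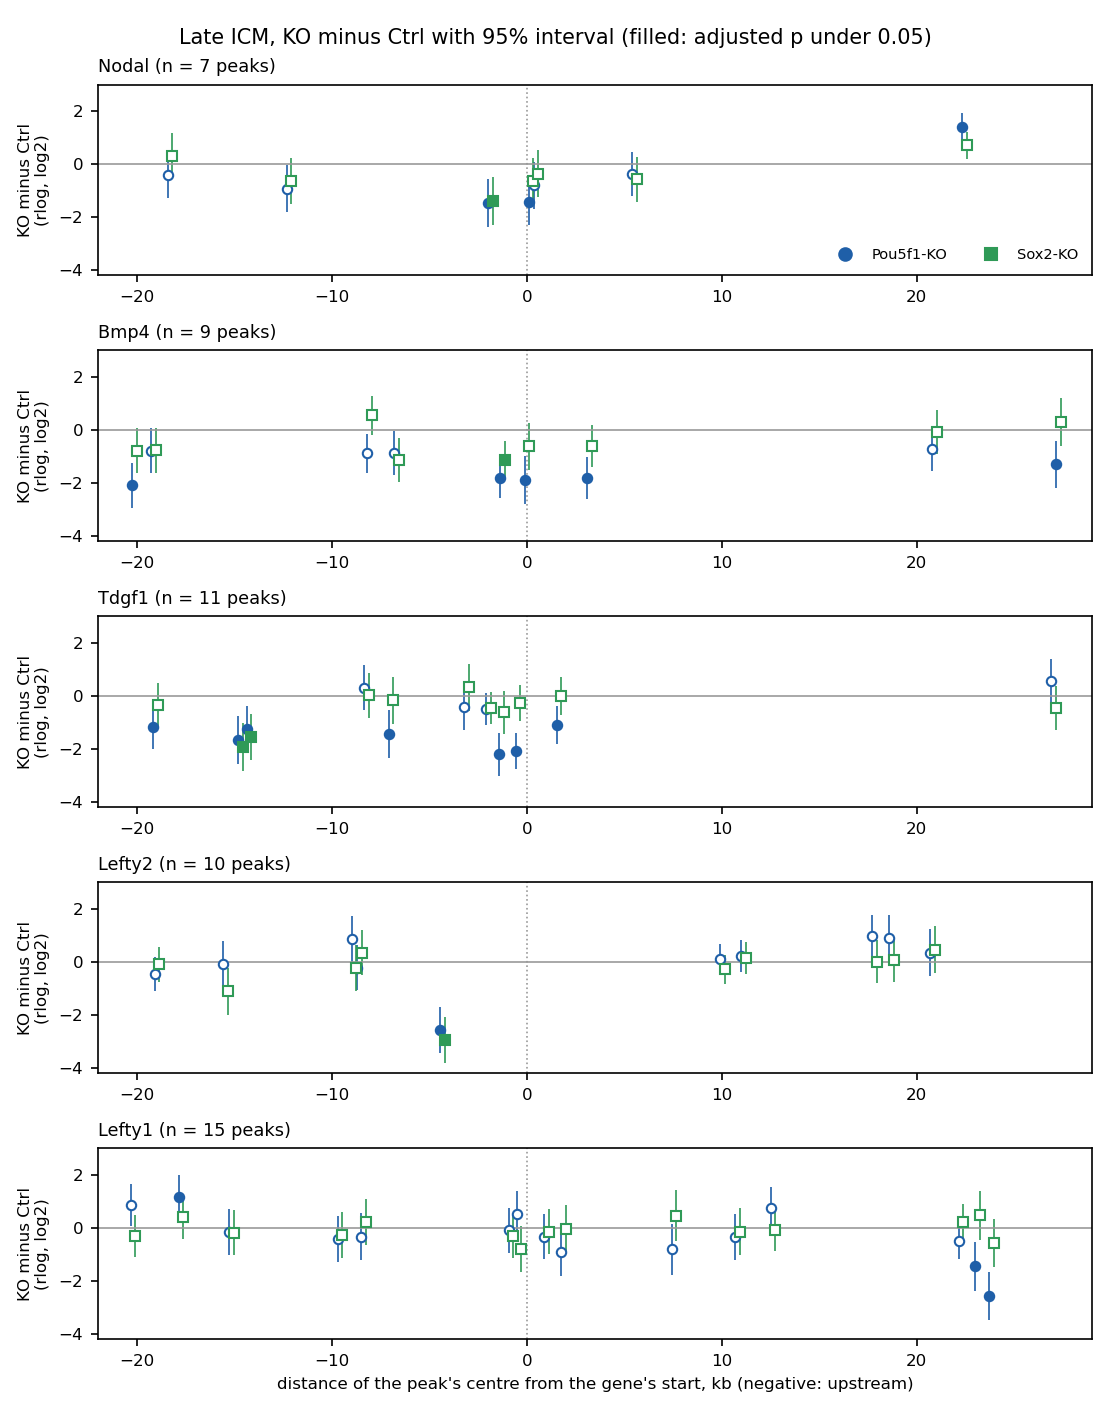
Difference in late ICM (KO minus Ctrl, log2, with 95% interval) of the 52 peaks against their distance in kb from the start of the nearest member gene, in a panel per gene, with Pou5f1-KO and Sox2-KO in separate colours and filled points at a limma adjusted p below 0.05. No point within 2 kb of the Lefty1 start is filled, whereas the Pou5f1-KO points nearest the Tdgf1 and Bmp4 starts are filled and lie below 0.

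Increases at the Lefty locus lay elsewhere. The peak 18960 bp upstream of Lefty2 rose in Pou5f1-KO early ICM, from 3.95, 3.59, 3.84 and 3.05 in Ctrl to 4.91, 5.01, 4.76 and 4.56 in KO (1.20, limma adjusted p = 0.00954; without Ctrl replicate 4, 1.02 and 0.0651). In late ICM its difference was -0.46 (limma adjusted p = 0.367). A peak 17737 bp upstream of Lefty1, chosen after its values were seen, rose in Pou5f1-KO late ICM from 3.11, 2.96, 3.16 and 4.12 to 4.14, 5.10, 4.75 and 3.94 (1.15, limma adjusted p = 0.0461), with KO replicate 4 inside the Ctrl range. None of the 7 peaks whose nearest coding gene is Lefty1 was called in any of the 6 KO comparisons, and no peak overlapped the body of Lefty2.

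The Lefty1 start instead differed between Ctrl late morulae and Ctrl early ICMs of the Pou5f1 line, a comparison in which 15% of all peaks fell. It also crosses the MEK inhibitor and the immunosurgery, so stage and treatment cannot be told apart. The peak 398 bp upstream, the nearest to the start, was at 2.64, 2.30 and 2.33 in Ctrl late morulae and at 2.18, 0.36, 0.46 and 1.71 in Ctrl early ICMs (early ICM minus late morula -1.25, limma adjusted p = 0.0354). The peak 804 bp upstream fell from 2.52, 2.27 and 3.17 to 0.36, 0.25, 1.64 and 1.11 (-1.82, limma adjusted p = 0.0015). In both, each of these Ctrl early ICM libraries lay below each of these Ctrl late morula libraries. The share of all peaks so apart was not counted. By mean, the 398 bp peak ran from 2.77 in Pou5f1-KO morula to 0.64 in Sox2-KO late ICM, with the 4 morula groups at the top of the order.

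Between late morula and early ICM in Pou5f1 Ctrl embryos, 19 of the 52 peaks rose (36.5%) and 5 fell (9.62%), where 14.7% of all peaks rose and 15% fell. The median change was 0.75, beside -0.04 over all peaks. Bmp4 led, with 7 of its 9 peaks higher and 0 lower (median 1.76), and at Tdgf1 6 of 11 rose and 0 fell (1.36). At Nodal 2 rose and 1 fell (0.79), and at Lefty1-Lefty2 4 rose and 4 fell (-0.01). The count of 24 calls came down to 14 without Ctrl late morula replicate 3. This comparison also crosses the MEK inhibitor and the immunosurgery, and stage and treatment cannot be told apart. It starts from the late morula level, which at Tdgf1 was lower than that of morulae. The Tdgf1 median of Ctrl group means ran from 2.95 in morula to 2.27 in late morula and 3.36 in early ICM. From morula to late morula the median change was -0.87 at Tdgf1, -0.47 at Bmp4, 0.08 at Nodal and -0.04 at Lefty1-Lefty2, without a call.

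The steepest rises were upstream of Bmp4. The peak 19149 bp upstream went from 1.66, 0.21 and 0.70 in Ctrl late morulae to 4.04, 3.86, 3.82 and 3.65 in Ctrl early ICMs (2.98, limma adjusted p = 2.97e-07), with a wide gap between the groups. The peaks 6687 bp and 8068 bp upstream rose by 2.80 and 2.19. At Nodal, the 5′ UTR peak rose by 1.24 (limma adjusted p = 0.0447) and the coding exon peak 478 bp from the start by 1.31 (0.0318), whereas the Eif4ebp2 intron peak fell by 2.27 (4.26e-10). The lead Tdgf1 and Lefty2 peaks rose by 1.36 (limma adjusted p = 0.00311) and 1.20 (0.0433). That Tdgf1 peak had a mean of 4.60 in Ctrl morula, 3.52 in Ctrl late morula and 4.89 in Pou5f1 Ctrl early ICM.

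**Figure D4:**
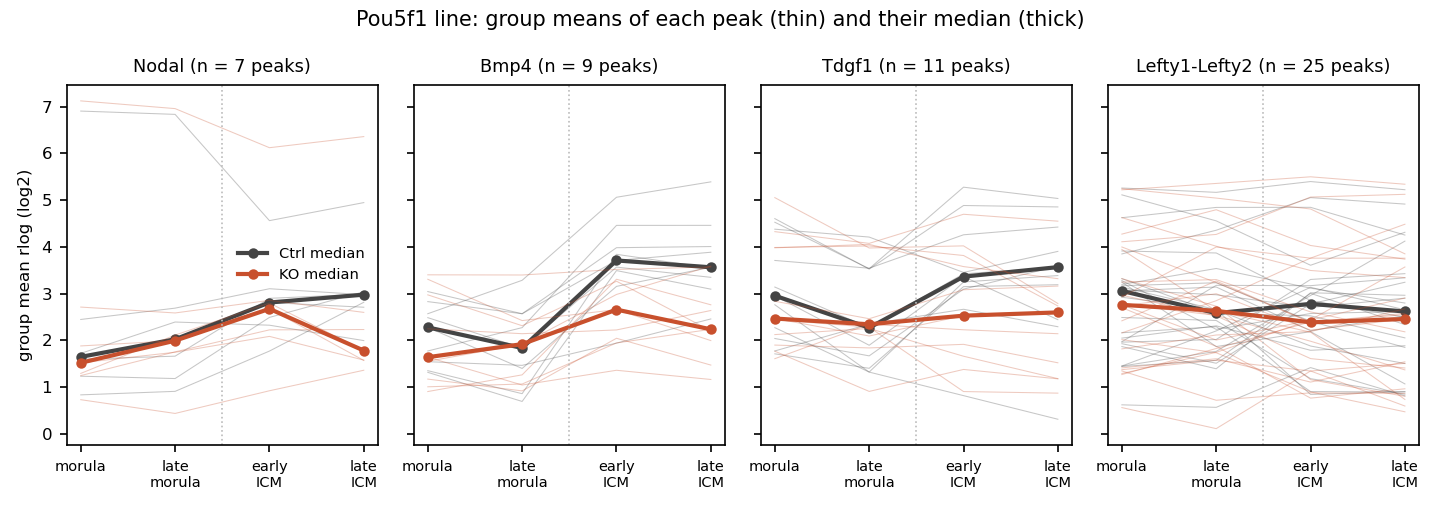
Group means of rlog over morula (E2.75), late morula (E3.25), early ICM (E3.75) and late ICM (E4.5) in the Pou5f1 line, with thin lines for single peaks and thick lines for the median of a locus, Ctrl and KO in separate colours, and a dotted line between the morula and ICM stages. The Bmp4 median went from 1.84 in Ctrl late morula to 3.71 in Ctrl early ICM and stood at 2.66 in KO early ICM.

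From morula to late morula limma called 0 of the 52 in Ctrl, with 8 at an unadjusted p below 0.05 (2.79% of all peaks fell and 3.65% rose), and it called 4 with quantile normalisation. From early to late ICM it called 0 in Pou5f1 Ctrl, with 5 at an unadjusted p below 0.05 (0.18% and 0.0787% of all peaks), and 0 in Sox2 Ctrl, with 7 (0.121% and 0.474%). Whether these steps differ from that between late morula and early ICM was not tested. For the change of the Pou5f1-KO difference from late morula to early ICM limma called 0 of the 52, with 14 at an unadjusted p below 0.05 (0.291% and 0.0551% of all peaks). The Eif4ebp2 intron peak came closest, at 1.44 (limma adjusted p = 0.0721), and it was called with the replicate block (0.00682), in the stages at which the numbers paired the libraries, and when only the compared groups were fitted (0.0337). For the change between early and late ICM limma called 0 as well (4 at an unadjusted p below 0.05; 0% of all peaks), and in Sox2-KO that comparison gave 0 calls and 6 at an unadjusted p below 0.05 (0.0164% and 0.00262% of all peaks). A KO difference called at 1 stage and not at another is thus, outside the Eif4ebp2 intron, not shown to differ between them.

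The Ctrl embryos of the lines differed at few of these peaks. In early ICM 1 of the 52 was lower in Sox2 Ctrl than in Pou5f1 Ctrl (0.545% of all peaks lower, 0.354% higher), in a Tmem63a intron 22285 bp downstream of the Lefty1 start (-1.42, limma adjusted p = 0.0172). In late ICM 1 was higher (0.667% and 0.763%), 8856 bp upstream of Lefty2 (1.53, limma adjusted p = 0.0477). These peaks were chosen after their values were seen. The early ICM call was lost without Pou5f1 Ctrl replicate 3 or Sox2 Ctrl replicate 1, and the late ICM call without any of the Pou5f1 Ctrl replicates 1 to 4 or Sox2 Ctrl replicates 1, 2 and 4.

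The share of the 52 windows with each motif is given beside that of all windows. Their median GC was 52.75%, beside 50.0% in all windows, and 29 of them had a mean rlog at or above the median of all peaks. OCT-SOX matches were in 2 of the 52 (3.44% of all windows). Both windows were decreased in Pou5f1-KO late ICM, but in Sox2-KO late ICM only the window upstream of Lefty2 was. The share decreased among all windows with a match was not counted, so nothing about the motif is drawn from these. The OCT word was in 1 window (2.39% of all), the Tmem63a intron, which held it 2 times, as 0.266% of all windows did. The SOX word was in 3 (8.60%), with 2 copies in the Bmp4 upstream window, a count that 0.488% of all windows reached. KLF words were in 11 windows (20.6% of all), TEAD words in 9 (18.9%) and the Foxh1 word AATNCACA, read on both strands, in 3 (2.74%), at Lefty1, Nodal and Bmp4. A match describes letters only and does not show that a factor bound there.

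The peaks elsewhere whose 12 group means ran most like the lead peaks are named by their nearest coding gene. For the Lefty2 upstream peak they were at Asxl3, Olfr725 and Smim15 (Pearson r 0.985, 0.981 and 0.979), and for the Bmp4 upstream peak at Etv1, Ppif and Etaa1 (0.979, 0.972 and 0.962). For the Tdgf1 upstream peak they were at Cd2ap, Ctu1 and Gm6871 (0.945, 0.930 and 0.927), and for the Eif4ebp2 intron peak at Mafa, Trir and Myo1d (0.984, 0.980 and 0.977). These are the highest of all peaks outside the windows over 12 group means that share stage and line, and they are given as a description only.

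Of 44 other genes of the Nodal and BMP pathways, 43 had peaks from 20 kb before to 20 kb after the gene, 441 in all. In Pou5f1-KO late ICM 46 of these peaks were decreased (10.4%) and 44 increased (9.98%), at 20 and 22 genes, close to the shares of all peaks. In Pou5f1-KO early ICM 30 were decreased (6.8%) and 11 increased (2.49%), at 18 and 9 genes, where 5.43% of all peaks were decreased and 8.18% called in either direction. In Sox2-KO late ICM 12 were decreased (2.72%, beside 4.88% of all peaks) and 19 increased (4.31%, beside 2.71%), at 10 and 11 genes. In Sox2-KO early ICM 5 were decreased (1.13%, beside 1.91%) and 2 increased (0.454%, beside 0.238%). By role, the shares in Pou5f1-KO late ICM are to be read beside the 10.1% of all peaks that were decreased and the 8.19% that were increased. Of 102 peaks at the receptors 2 were decreased (1.96%) and 16 increased (15.7%), the latter at 7 of 8 genes. The inhibitors also had increased peaks at 7 of 11 genes, with 9 of 96 peaks decreased (9.38%) and 14 increased (14.6%). Of 40 peaks at the 2 genes for ligand processing 9 were decreased (22.5%) and 1 increased (2.5%). Of 61 peaks at other ligands and co-receptors 14 were decreased (23.0%), 9 of them at Gdf3 alone, and 2 increased (3.28%). The transducers had 4 of 71 decreased (5.63%) and 5 increased (7.04%), and the targets 8 of 71 (11.3%) and 6 (8.45%). In the span of Acvr2b, an activin type II receptor, 3 of 10 peaks were increased, the strongest (by adjusted p, as for the genes that follow) by 1.87 (limma adjusted p = 0.000386), but that peak lies 30233 bp from the Acvr2b start and its nearest coding gene is Exog.

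Single genes of that list held large changes. At Gdf3, a ligand that acts with Cripto, 9 of 13 peaks were decreased in Pou5f1-KO late ICM, the strongest by 3.71 (limma adjusted p = 7.08e-13), although the coding gene nearest to that peak is Dppa3. At Bambi, a pseudoreceptor that blocks BMP signalling, 4 of 6 peaks were decreased and 1 increased, and the strongest fell by 3.14 (limma adjusted p = 1.15e-09). At Gsc, a Nodal target, 4 of 9 were decreased in Pou5f1-KO and 3 of 9 in Sox2-KO late ICM, the strongest by 1.94 and 2.49 (limma adjusted p = 0.000701 and 8.36e-06). In Pou5f1-KO late ICM, Skil, an inhibitor of Smad2/3, was mixed, with 4 of 12 peaks increased and 1 decreased (-2.15, limma adjusted p = 3.09e-05). At Foxh1, the Smad2 partner, 1 of 8 peaks fell (-1.32, limma adjusted p = 0.0139), and at Mixl1 1 of 8 rose (1.78, 0.000104). The Id genes, BMP targets, went different ways in Pou5f1-KO late ICM. At Id1 2 of 8 peaks fell (the strongest -1.80, limma adjusted p = 0.000504) and at Id4 1 of 4 (-2.47, 4.18e-06), whereas at Id2 3 of 13 rose (the strongest 1.42, 0.00765) and at Id3 none of 9 was called. In Sox2-KO late ICM 1 of the 9 peaks at Id3 fell (-1.28, limma adjusted p = 0.00238).

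Promoter peaks of lineage markers are given beside these results, without a test of the lists. The mean promoter rlog of 8 epiblast markers was 4.34 to 4.68 in Pou5f1 Ctrl late ICMs and 3.38 to 3.67 in KO, lower for 8 of 8 genes (Tdgf1 and Sox2 are themselves in this list), and in Sox2 late ICMs it was 4.16 to 4.39 in Ctrl and 3.44 to 3.87 in KO, again for 8 of 8, with gene differences from -1.73 at Sox2, the gene deleted in that line, to -0.02 at Esrrb (median -0.31). Without Sox2 and Tdgf1, a choice made after seeing the data, the 6 other genes gave 4.40 to 4.85 in Pou5f1 Ctrl and 3.59 to 3.83 in KO, and 4.268 to 4.63 in Sox2 Ctrl and 3.64 to 4.270 in KO, so that the Sox2 groups met. In Pou5f1-KO early ICM the range was 3.58 to 4.19 beside 4.26 to 4.53 in Ctrl. For 7 trophectoderm markers the late ICM ranges were 3.88 to 4.32 in Pou5f1 Ctrl and 4.24 to 4.39 in KO (lower for 4 of 7), and 3.73 to 4.09 in Sox2 Ctrl and 4.34 to 4.70 in KO (lower for 0 of 7). For 6 primitive endoderm markers they were 2.61 to 3.13 and 2.30 to 2.84 in the Pou5f1 line and 2.748 to 3.14 and 2.64 to 3.16 in the Sox2 line. In late ICM the Ctrl and KO libraries were thus apart for the epiblast list in the Pou5f1 line, in the Sox2 line only with Sox2 and Tdgf1 counted, and for the trophectoderm list in the Sox2 line, and overlapped for the others. No marker list was at 0 in any group, and the part of these differences in the results above was not tested. Accessibility is not a check of the deletions: of 3 peaks within 1 kb of Pou5f1, 1 was decreased in Pou5f1-KO early ICM and 0 in late ICM, and of 3 at Sox2, 1 was decreased in Sox2-KO at each ICM stage.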

How the data were processed

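ATAC-seq was made from pooled embryos in 44 libraries of 12 groups. Per the methods of the study, the authors trimmed adapters with SeqPurge, aligned with Bowtie2 to mm10, removed duplicates with Picard, kept uniquely mapped fragments, shifted ends for Tn5, called peaks with MACS2 and merged summits found in replicates. The submitters' processing notes also name bedtools, deepTools and DESeq2. The values the authors deposited are log2 values (rlog, from DESeq2) of Tn5 insertions per 200 bp window, so rlog shrinkage lowers differences at weak peaks. The deposited group means equal the means of the libraries, and 0 columns of other samples were present.

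Differences were tested with limma 3.58.1 in R 4.3.3 on the rlog values as deposited: 12 group means over all 44 libraries, 32 residual degrees of freedom, a trended variance and Benjamini-Hochberg adjustment over 152393 peaks in each of 17 contrasts, two-sided, without a filter. The test was checked on simulated data, where it missed nearly all of the smallest changes and recovered fewer of the intermediate ones in morulae than in ICMs. Groups came from the sample titles. Gene positions were from GENCODE vM21 (GRCm38) and sequences from RefSeq GRCm38.p6. Library values were given for the peak nearest each member gene's start and for up to 4 peaks per locus with the smallest adjusted p in a KO comparison, among those called. The lead peak of a locus was the first of these, and the 3 peaks with the highest r of the group means are the most alike. The members, gene lists and marker lists were chosen with earlier results of these data known. Beyond the peak windows, promoter sequences of Lefty1 and Lefty2 were not analysed here.

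Replicate numbers in the titles are shared between Ctrl and KO. Same-numbered Ctrl and KO libraries deviated together (every correlation above 0.1) in Pou5f1 late morula (0.109 to 0.192) and early ICM (0.121 to 0.162) only, so that the number was taken to pair libraries there, from the data and not from a label. By the mean of these correlations Sox2 early ICM was higher (0.176, beside 0.147 and 0.144). The main fit ignored any such pairing, which entered only in the replicate block. Alternatives were a fit of the compared groups, a filter that dropped peaks below the median level, quantile normalisation, a replicate block and leaving out each library. Replicates of a group correlated at 0.762 to 0.908 over all peaks, and none were duplicates.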

Additional observations from a re-analysis of the deposited data

Results flagged for a closer look

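In 128 groups of 4 libraries at the described peaks, 7 had a library whose gap to the others passed Dixon's 95% critical value. Chance alone flags about 1 in 20 such groups. At the Nodal 5′ UTR peak, Pou5f1 Ctrl early ICM replicate 1 stood at 1.28 and the other libraries of its group at 3.34 to 3.64. At the peak 1864 bp upstream of Nodal this held for 4 groups: Pou5f1-KO early ICM replicate 3 at 2.39 (the others at 0.34 to 0.49), Pou5f1-KO late ICM replicate 1 at 0.52 (1.54 to 1.72), Sox2-KO early ICM replicate 4 at 0.54 (1.96 to 2.12) and Sox2 Ctrl late ICM replicate 3 at 1.87 (2.753 to 2.93). At the peak 20112 bp upstream of Bmp4, Sox2-KO early ICM replicate 3 was at 1.74 (2.53 to 2.61), and at the peak 1301 bp upstream of Tdgf1, Sox2 Ctrl late ICM replicate 2 was at 3.30 (4.05 to 4.13).

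By the test of the difference itself, the Pou5f1-KO effect was called different from the Sox2-KO effect at 2 peaks, and both calls depended on single libraries. In early ICM it was lower by a log2 difference of -2.745 at the Tmem63a intron peak, and in late ICM by -1.80 at the peak 449 bp upstream of Tdgf1. The early ICM count was 0 without Sox2-KO replicate 1. The late ICM count was 0 without any of the Pou5f1 Ctrl or Sox2-KO late ICM libraries, among others, and with quantile normalisation.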

How the results depend on the processing

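Of the described peaks' KO differences, none changed sign under an alternative while called. The counts of called peaks among the 52 moved as follows. With peaks below the median level dropped, which leaves fewer of the 52 in the test, the counts were 6 in Pou5f1-KO early ICM, 10 in Pou5f1-KO late ICM, 1 in Sox2-KO late ICM, 11 for early ICM against late morula in Ctrl, 0 for the early ICM difference between the KO effects and 0 for the late ICM difference between the Ctrl lines. With quantile normalisation they were 2 in Sox2-KO early ICM, 0 for the late ICM difference between the KO effects and 4 for late morula against morula in Ctrl. With only the compared groups fitted, the change of the Pou5f1-KO effect from late morula to early ICM gave 1. The cause of these moves was not tested.

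With the replicate block the counts were 12 and 19 in Pou5f1-KO early and late ICM, 2 in Sox2-KO early ICM, 6 in Sox2-KO late ICM, 3 for the early ICM difference between the KO effects and 1 for the change of the Pou5f1-KO effect from late morula to early ICM. The block called the Eif4ebp2 intron peak in Sox2-KO late ICM (limma adjusted p = 0.0117), where no pair of same-numbered libraries correlated above 0.1, and the Lrrc2 exon peak in Pou5f1-KO early ICM. It changed no other KO call of a described peak, and the change of the Pou5f1-KO effect that it called was at the Eif4ebp2 intron (1.44). In the other stages the lowest correlation of same-numbered libraries was 0.0479, 0.0174, 0.0859 and -0.0248 (Pou5f1 morula and late ICM, Sox2 early and late ICM). Still, 4 of 4 Sox2 Ctrl early ICM and 3 of 3 Pou5f1 Ctrl morula libraries correlated best with the KO library of their own number, a hint from the data and not from the design. Comparisons between stages and between Ctrl lines could not be blocked, because the block lies within a line and stage.

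Leaving out each library in turn gave 9 to 11 calls in Pou5f1-KO early ICM, 13 to 16 in Pou5f1-KO late ICM, 0 to 2 in Sox2-KO early ICM, 2 to 5 in Sox2-KO late ICM, 14 to 25 for early ICM against late morula, 0 to 2 and 0 to 1 for the early and late ICM differences between the KO effects, and 0 to 1 for the Ctrl lines at each ICM stage. Of such refits of the described differences, 668 kept their side of the threshold, 35 lost a call and 1 gained it. These refits cover every KO comparison of each described peak. Most of those differences were not called in the main fit and had no call to lose, so the share kept does not measure how stable the calls were. Depth is unknown, and rlog limits what weak peaks can show.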
